A study of Mus musculus with 4 samples.

Results

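The S100, annexin and galectin genes that are usually read together in effector and memory T cells were followed, with the actin-capping gene Capg, in T cells from the pancreatic islets of NOD mice: S100a4, S100a6, S100a10, S100a11, Lgals1, Lgals3, Anxa1, Anxa2 and Capg. They are 9 of the 27998 genes in the count tables, and all 9 were detected at both ages. The list was drawn up with the difference between the ages in these cells already known, so every difference between ages below is a description of the genes that were picked for it. No statistical test between conditions was possible, so differences are given as sizes with their counting intervals.

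T cells came from islets of pre-diabetic NOD females, a mouse strain prone to spontaneous autoimmune diabetes, that were 8 or 16 weeks old. Cells that were positive for the T cell receptor beta chain and negative for the dead cell stain DAPI were sorted, and each age is represented by 1 pair of libraries, one for the 5' ends of messenger RNA in droplets and one for T cell receptor chains. No treatment, transgene or other genotype is given in the labels, and the number of mice behind each library is not given. With 1 library per age there is no spread between animals: all intervals are exact 95% intervals for counting error only, and a difference between ages compares 2 libraries.

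S100 proteins are small calcium-binding proteins that work by docking on other proteins. S100a4 binds non-muscle myosin, S100a6 binds Cacybp, S100a10 joins annexin A2 in a complex at the membrane and S100a11 binds annexin A1. Annexins bind phospholipid membranes when calcium rises, and secreted Anxa1 also signals through formyl peptide receptors. Galectins bind beta-galactosides: Lgals1 binds glycans on Ptprc (CD45) and Spn (CD43), and Lgals3 crosslinks the branched N-glycans that Mgat5 makes. Capg caps actin filaments and belongs to the gelsolin family. In T cells these genes are known for low levels in naive cells and higher levels after activation.

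All 4 S100 members lie on mouse chromosome 3 (build mm10, GENCODE M21, all protein coding): S100a4 at chr3:90603771-90606045 and S100a6 at chr3:90612882-90624181, with 6836 bases between them, and S100a11 at chr3:93520488-93526287 and S100a10 at chr3:93555080-93564643. The other members are spread over the genome, with Capg at chr6:72544391-72562983, Anxa2 at chr9:69453620-69491795, Lgals3 at chr14:47367751-47386160, Lgals1 at chr15:78926725-78930465 and Anxa1 at chr19:20373428-20390944 on the minus strand. A RefSeq promoter (GRCm38.p6, 250 bases before to 50 after RefSeq's start of the gene) was matched by symbol for 7 of the 9; S100a10 and Lgals1 had no entry. For Lgals3 and Capg the RefSeq start lies well inside the GENCODE gene, so those promoters are not at the gene starts given here. The 250 bases before the start are shown for S100a4, S100a6, S100a11 and Anxa2. Among members with 50 or more UMIs, S100a4 and S100a6 had the largest differences between ages in Cd8 cells. S100a11 and Anxa2 hold the letters of an AP-1 motif. Capitals mark the motif matches; all 4 stretches are on the plus strand and read 5' to 3'.
S100a4, chr3:90603520-90603769: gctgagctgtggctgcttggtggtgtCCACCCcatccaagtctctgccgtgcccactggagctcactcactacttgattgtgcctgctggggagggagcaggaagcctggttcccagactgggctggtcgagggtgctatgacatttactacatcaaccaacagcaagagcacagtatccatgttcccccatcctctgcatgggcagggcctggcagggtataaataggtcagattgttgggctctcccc
S100a6, chr3:90612644-90612893: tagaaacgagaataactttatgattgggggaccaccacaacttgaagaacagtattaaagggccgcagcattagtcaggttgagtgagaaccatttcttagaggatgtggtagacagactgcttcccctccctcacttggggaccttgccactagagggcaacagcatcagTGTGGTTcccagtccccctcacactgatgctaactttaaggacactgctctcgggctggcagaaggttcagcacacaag
S100a11, chr3:93520246-93520495: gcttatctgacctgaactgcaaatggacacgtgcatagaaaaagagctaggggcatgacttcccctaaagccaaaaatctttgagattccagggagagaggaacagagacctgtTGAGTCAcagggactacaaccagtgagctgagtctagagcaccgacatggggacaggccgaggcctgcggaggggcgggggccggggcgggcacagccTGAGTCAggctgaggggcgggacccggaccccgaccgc
Anxa2, chr9:69453433-69453682: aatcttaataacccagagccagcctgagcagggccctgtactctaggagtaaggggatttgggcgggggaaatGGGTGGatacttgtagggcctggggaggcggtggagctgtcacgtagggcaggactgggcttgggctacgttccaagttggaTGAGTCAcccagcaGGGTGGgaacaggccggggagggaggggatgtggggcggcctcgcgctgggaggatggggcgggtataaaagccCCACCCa

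The letters searched, on both strands and with overlaps allowed, were TGANTCA (AP-1), CCACCC (KLF), TGTGGTT (RUNX) and GGTGTGA (T-box). The AP-1 letters stood in 2 of the 7 promoters, with 2 matches in S100a11 and 1 in Anxa2, against 7.81% of 32851 mouse promoters of the same length. The KLF letters stood in 3 of 7 (S100a4, Anxa2 and Capg; GGGTGG is the same motif on the other strand) against 31.5%, and the RUNX letters in 1 of 7 (S100a6) against 5.27%. The T-box letters were in none of the 7, and in 3.98% of all promoters. These are matches of letters and say nothing about binding.

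After filtering, 1790 T cells with 7727848 UMIs (unique molecules counted per gene) remained at 8 weeks and 1832 with 7114500 at 16 weeks, at a median of 2926.5 and 2887.5 UMIs per cell. Cells were classed by UMIs of lineage genes into conventional Cd4 (635 and 614 cells; a Cd4 UMI, none of Cd8a, Cd8b1 or Foxp3), Foxp3-positive Cd4 (104 and 80) and Cd8 (287 and 312); 764 and 826 cells had no or mixed lineage UMIs. Defining T cell markers were present in every class, with Cd3e at 1797 to 2399.6 CPM (UMIs per 1e+06 UMIs of the class). The Foxp3-positive class held Il2ra at 101 and 84.6 CPM against 18.5 and 15.9 in conventional cells, while a Foxp3 UMI was also found in 4.88% and 5.13% of Cd8 cells, against 14.1% and 11.5% of Cd4-gated cells. Macrophage, dendritic and granulocyte genes were sparse among the T cells that were kept. Cells with UMIs of 3 or more genes of any of these lists had been left out, so low sums follow in part from that filter. The macrophage list summed to 4.10 to 12.96 CPM per class, with Adgre1 at 0 in every class, and the granulocyte list to at most 2.29 CPM. The dendritic list summed to 17.1 to 102.5 CPM with Flt3, Clec9a, Cd209a and Siglech at 0 in every class. It was highest in Foxp3-positive cells, at 52.0 CPM at 8 and 102.5 at 16 weeks. These UMIs came from only 2 of its 10 genes at 8 weeks, Cd74 and Xcr1, and 3 at 16 weeks, Cd74, H2-Aa and H2-Eb1. H2-Ab1 and Itgax were also at 0 in that class. Exocrine (acinar) genes summed to 27.4 to 52.0 CPM per class. Genes of natural killer and innate-like lymphocytes, by contrast, were lower at 16 weeks, at 30.2 and 7.75 CPM in conventional and 10.6 and 2.29 CPM in Cd8 cells. The part of these cells or of their free RNA in the results was not tested.

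Within each library the 9 genes took the largest share of UMIs in the Foxp3-positive class: together they made up 6402 CPM at 8 and 4920 CPM at 16 weeks, against 4736 and 2507 CPM in Cd8 cells and 3697 and 2418 CPM in conventional Cd4 cells. At 8 weeks 5 of 9 members were at least 1.5-fold higher in Foxp3-positive than in conventional cells, where 9.73% of all genes tested were. At 16 weeks it was 7 of the 8 members with 50 or more UMIs, the floor for this count, against 12.4% of all genes. The median log2 ratios of the members were 0.69 and 0.91. The Foxp3-positive class, gated on a Foxp3 UMI, was deeper, at a median of 5673.5 and 5543.5 UMIs per cell against 3132 and 3024.5 in conventional cells, and dividing cells held 44.2% and 26.7% of its UMIs against 23.3% and 15.3%. Cells called naive by the gate given below made up 37.5% and 55.4% of conventional but 17.3% and 11.3% of Foxp3-positive cells. Outside that gate at 16 weeks, S100a4 stood at 212 CPM in Foxp3-positive and 102 in conventional cells. In the same order, S100a6 had 1380 and 781, Capg 260 and 124, S100a10 1404 and 1008, and S100a11 161 and 121. Lgals1 had 1327 and 997, Lgals3 65.4 and 52.1, Anxa1 13.9 and 12.1, and Anxa2 218 and 241. The part of depth, division and naive cells in this difference was not tested. Capg had the largest ratio at 8 weeks, with 324 CPM (284 to 368) in Foxp3-positive and 111 (99.3 to 124) in conventional cells, a log2 ratio of 1.55 (1.30 to 1.79), and at 16 weeks the ratio was 1.60 (1.27 to 1.91). Anxa2, by contrast, stood at 298 CPM in Foxp3-positive and 294 in conventional cells at 8 weeks, a log2 ratio of 0.02 (-0.20 to 0.24).

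Cd8 cells were compared with conventional Cd4 cells in the same way. At 8 weeks 3 of 9 members were at least 1.5-fold higher in Cd8 cells (4.53% of all genes) and 1 was lower (8.61%); at 16 weeks 1 of 8 was higher (3.96%) and 2 were lower (8.07%). Lgals3 was the higher one at both ages, with log2 ratios of 1.11 (0.85 to 1.38) and 0.80 (0.33 to 1.26), and Capg the lower one at both, with -0.86 (-1.24 to -0.51) and -1.26 (-1.77 to -0.80). S100a6 lay on opposite sides at the 2 ages, 0.92 (0.83 to 1.02) at 8 weeks and -0.41 (-0.57 to -0.26) at 16 weeks. S100a4 went from 0.21 (-0.05 to 0.46) to -1.10 (-1.67 to -0.60). These counts are small and moved with the gates: with conventional cells that also lack Il2ra, Ikzf2 and Gpr83 UMIs, 5 members were higher in Cd8 cells at 8 weeks and 4 at 16 weeks, and with every cell given equal weight 1 was at 8 weeks. The share of all genes was not computed under these alternatives, so it may have moved as well.

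**Figure D1:**
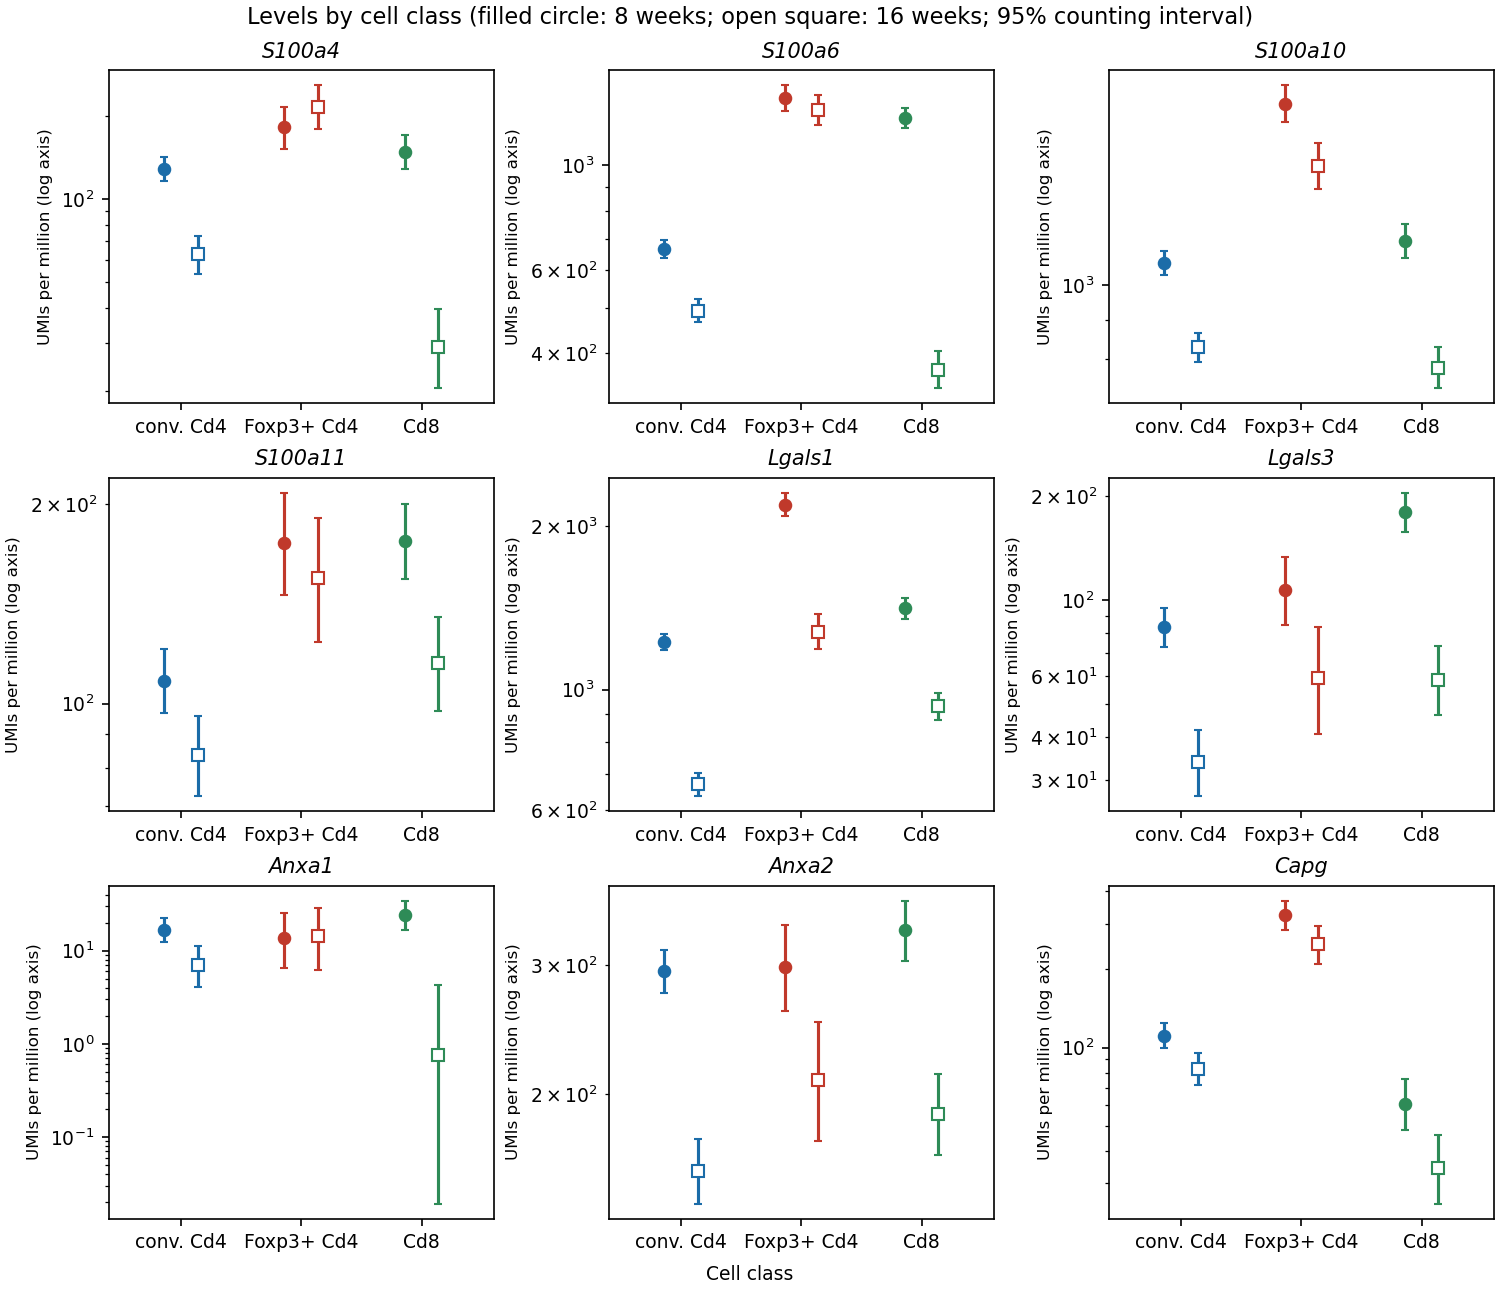
Level of each of the 9 genes (CPM, log axis) in conventional Cd4, Foxp3-positive Cd4 and Cd8 cells at 8 weeks (filled circles) and 16 weeks (open squares), with exact 95% counting intervals. In Cd8 cells S100a6 stands at 1259.8 at 8 weeks and 369.8 at 16 weeks, while in Foxp3-positive cells it stands at 1388 and 1308.

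The difference between ages varied in size over the 3 classes. In Cd8 cells 7 of the 8 members with enough UMIs were at least 1.5-fold lower at 16 weeks, in conventional Cd4 cells 5 of 9, and in Foxp3-positive cells 2 of 8. Over all genes tested, 5.53% in Cd8, 4.8% in conventional and 7.25% in Foxp3-positive cells were lower by that much; the members were picked on this contrast, so the counts describe them and carry no further weight. The median log2 ratio of the members, 16 over 8 weeks, was -0.82 in Cd8, -0.87 in conventional and -0.32 in Foxp3-positive cells, with -0.06, -0.05 and -0.07 for all genes. Whether the classes differ in this respect was not tested.

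Among the S100 genes, S100a4 stood at 148 CPM (128 to 170, 195 UMIs) at 8 and 29.0 CPM (20.5 to 39.8, 38 UMIs) at 16 weeks in Cd8 cells, a log2 ratio of -2.34 (-2.89 to -1.85). In conventional Cd4 cells it stood at 129 and 62.8 CPM, a log2 ratio of -1.03 (-1.31 to -0.76). In Foxp3-positive cells it stood at 182 and 216 CPM, with 133 and 120 UMIs and a log2 ratio of 0.25 whose interval, -0.12 to 0.61, spans 0. The order of its levels therefore changed between the libraries: the 3 classes lay within 129 to 182 CPM at 8 weeks, with overlapping intervals between Cd8 and either other class, and were separate at 16 weeks, from Foxp3-positive through conventional to Cd8. The direction in Foxp3-positive cells depended on which cells were counted. It was -0.06 in non-dividing cells and -0.04 with no cell left out for markers of other cell types, but 0.91 in cells with 2 or more Foxp3 UMIs.

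S100a6 followed the same order of classes. In Cd8 cells it stood at 1259.8 CPM (1200 to 1322) at 8 and 369.8 CPM (338 to 404) at 16 weeks, a log2 ratio of -1.77 (-1.92 to -1.62). In conventional cells it stood at 665 and 493 CPM, -0.43 (-0.54 to -0.33), and in Foxp3-positive cells at 1388 and 1308 CPM, -0.09 (-0.22 to 0.05). Of the 3 classes, only Cd8 cells passed 1.5-fold for this gene. S100a10, the annexin A2 partner, differed less: 1142 and 780.1 CPM in Cd8, 1068 and 829.5 in conventional and 1725 and 1432 in Foxp3-positive cells, with log2 ratios of -0.55 (-0.67 to -0.43), -0.36 (-0.45 to -0.28) and -0.27 (-0.40 to -0.14). S100a11, the annexin A1 partner, stood at 176 and 115 CPM in Cd8 cells, -0.61 (-0.92 to -0.31), at 108 and 83.6 in conventional cells, -0.37 (-0.63 to -0.12), and at 175 and 155 in Foxp3-positive cells, -0.18 (-0.59 to 0.23).

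Both annexins were lower at 16 weeks in conventional and Cd8 cells. Anxa2 stood at 294 and 157 CPM in conventional cells, -0.90 (-1.08 to -0.73), at 334 and 188 in Cd8 cells, -0.83 (-1.06 to -0.60), and at 298 and 209 in Foxp3-positive cells, -0.51 (-0.85 to -0.18). At 8 weeks the intervals of neighbouring classes overlapped for this gene. Anxa1 was the rarest of the 9. It had 49 UMIs at 8 and 17 at 16 weeks in conventional cells (16.8 and 6.93 CPM, log2 ratio -1.25, -2.17 to -0.45), and 32 UMIs and 1 in Cd8 cells (24.3 and 0.763 CPM, -4.43, -10.3 to -2.41). A single Cd8 cell held 34.4% of the Anxa1 UMIs of its class at 8 weeks, so this ratio rests on few cells. In Foxp3-positive cells 10 and 8 UMIs gave 13.7 and 14.4 CPM, at which no difference was detectable.

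Lgals1 and Lgals3 were the 2 members at least 1.5-fold lower at 16 weeks in all 3 classes. Lgals1 stood at 1222 CPM (1182 to 1263) and 669 CPM (637 to 702) in conventional cells, at 2189 (2083 to 2299) and 1277 (1185 to 1375) in Foxp3-positive cells and at 1410.2 (1347 to 1476) and 931 (880 to 985) in Cd8 cells. Its log2 ratios were -0.87 (-0.95 to -0.78), -0.78 (-0.91 to -0.65) and -0.60 (-0.70 to -0.49). Its order of classes, from Foxp3-positive through Cd8 to conventional, was the same at both ages with separate intervals over all cells. At 16 weeks 1 Cd8 cell held 17.6% of the Lgals1 UMIs of its class, and without it the level was 785 CPM. Among non-dividing cells the Cd8 and conventional intervals overlapped at both ages. They were 948 to 1072 and 875 to 955 CPM at 8 weeks. At 16 weeks they were 457 to 540 and 435 to 494 CPM. Lgals3 stood at 83.3 and 33.9 CPM in conventional cells, -1.29 (-1.68 to -0.93), at 107 and 59.4 in Foxp3-positive cells, -0.83 (-1.48 to -0.24), and at 179.97 and 58.7 in Cd8 cells, -1.61 (-2.01 to -1.24). Its levels came from few cells: 1 cell held 14.4% of the Lgals3 UMIs of conventional cells at 8 weeks and 27.3% of those of Foxp3-positive cells at 16 weeks. With cells deeper than 3 times the median of their library left out, the Lgals3 log2 ratio in Foxp3-positive cells was 0.0077. Capg, the actin capper, was lower in all classes, at 111 and 82.8 CPM in conventional, 324 and 250.1 in Foxp3-positive and 60.8 and 34.3 in Cd8 cells, with log2 ratios of -0.42 (-0.68 to -0.17), -0.37 (-0.69 to -0.07) and -0.82 (-1.38 to -0.28).

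**Figure D2:**
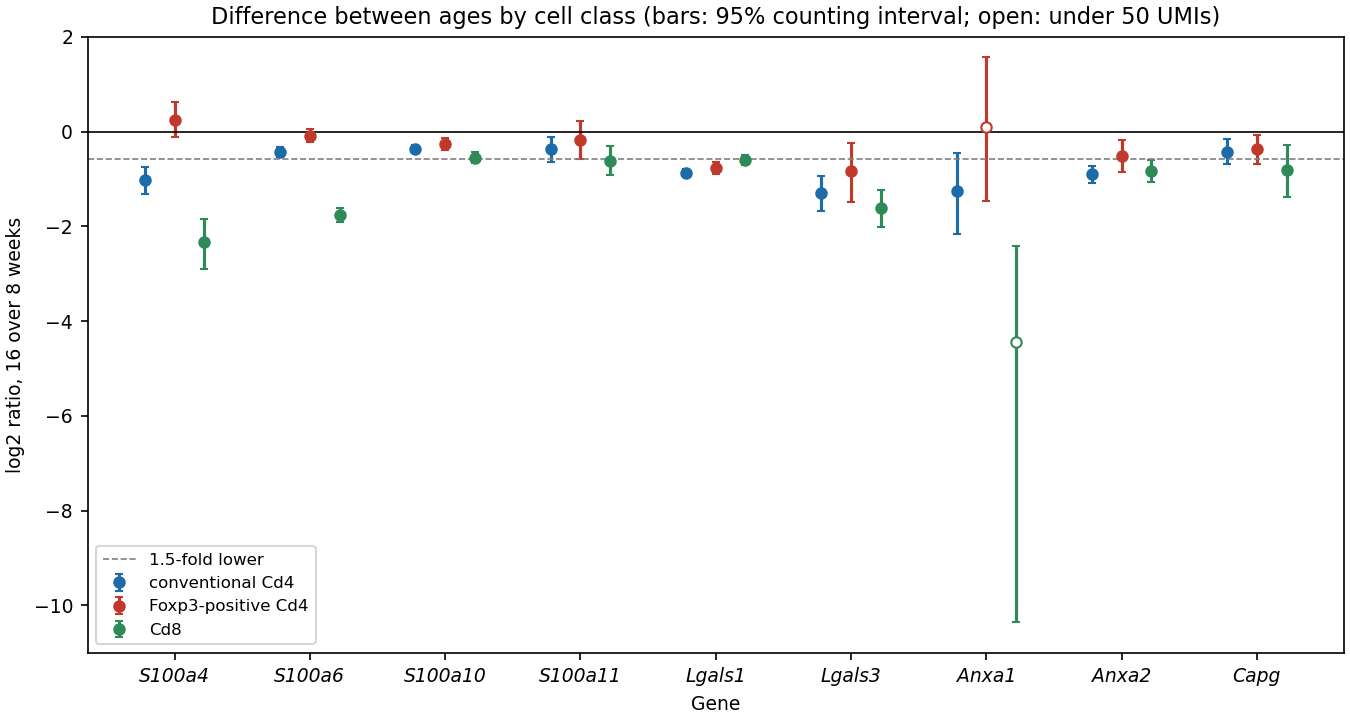
Log2 ratio of the level at 16 weeks over that at 8 weeks for each gene in conventional Cd4 (blue), Foxp3-positive Cd4 (red) and Cd8 cells (green), with exact 95% counting intervals; open circles have fewer than 50 UMIs and the dashed line marks 1.5-fold lower. The Cd8 points of S100a4 (-2.34) and S100a6 (-1.77) lie well below those of the other classes, while the 3 points of Lgals1 lie between -0.87 and -0.60.

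Ranked from the lowest ratio among all genes with 50 or more UMIs, S100a4 was 2, S100a6 was 5 and Lgals3 was 8 of 5062 in Cd8 cells. In conventional cells Lgals3 was 25, Anxa1 26, S100a4 62, Anxa2 89 and Lgals1 104 of 7202. In Foxp3-positive cells Lgals3 was 76 and Lgals1 99 of 3336, and S100a4 was 2688. The members were picked with this contrast known, so the ranks describe them and carry no further weight. In cells without a class 4 of 9 members were lower by 1.5-fold or more (3.86% of all genes). Lgals1 stood at 991 and 561 CPM there, while Anxa1, with 38 and 35 UMIs, stood at 13.8 and 12.5 CPM. The counts depended on which cells were summed. The Cd8 count was 4 when cells with several beta chains were dropped and 3 in cells whose receptor was seen once, while all 8 Cd8 members were lower among non-dividing cells. The Foxp3-positive count was 0 when cells with several beta chains were dropped and 0 among non-dividing cells. Among non-dividing cells, 4.47% of all genes were lower in Cd8 and 5.75% in Foxp3-positive cells. The share of all genes was not computed for the other alternatives given here.

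Cells were next grouped by state, using lists that hold none of the 9 genes: a cell was called naive, effector or follicular helper from UMIs of 2 or more genes of 1 list only (naive, among others: Lef1, Ccr7, Dapl1, Igfbp4, S1pr1; effector, among others: Cxcr3, Cxcr6, Ifng, Ccl5, Nkg7, Gzmk, Tbx21; follicular helper: Cxcr5, Pdcd1, Il21, Sostdc1, Tox2, Bcl6, Cd200). All 9 members were at least 1.5-fold lower in naive cells than in the rest at both ages, where 19.5% and 19.4% of all genes were. The members are known for low levels in naive cells, and they and all lists were chosen with earlier results of these data known. These counts, and those of the effector and follicular helper gates below, therefore describe the genes picked and carry no further weight. The median log2 ratio was -2.82 at 8 and -2.33 at 16 weeks, against -0.13 and -0.17 for all genes. S100a6, for example, stood at 145 CPM in naive and 1163 in other cells at 8 weeks, a log2 ratio of -2.997 (-3.17 to -2.83), and the ratio was -2.99 (-3.16 to -2.83) at 16 weeks. S100a4 had -3.19 and -3.15, Lgals1 -2.31 and -2.22, Anxa2 -2.50 and -2.33, Capg -2.82 and -2.55, Anxa1 -3.05 and -3.19, S100a11 -1.83 and -1.69, and Lgals3 -3.32 and -1.79. S100a10 stood apart from the other 8 at both ages, with -0.87 (-0.95 to -0.79) and -0.83 (-0.91 to -0.76): naive cells held it at 724 and 625 CPM.

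Effector-gated cells (201 and 131 cells) held the members at higher levels than naive cells (709 and 998 cells) in all 8 genes with enough UMIs at both ages, against 16.6% and 21.5% of all genes, with medians of 2.97 and 3.01. Lgals3 stood at 259 against 13.5 CPM at 8 weeks, a log2 ratio of 4.24 (3.68 to 4.89), and S100a4 at 306 against 18.8 CPM, 4.01 (3.53 to 4.55). Follicular helper cells (148 and 103) differed from naive cells in most but not all members: 6 of 7 and 6 of 8 were higher, against 20.4% and 25.4% of all genes. Capg was the highest of them at 8 weeks, with 143 against 23.2 CPM, a log2 ratio of 2.61 (2.11 to 3.15). Lgals3, with only 7 and 4 UMIs in follicular helper cells, stood at 10.2 and 9.68 CPM there, log2 ratios of -0.33 (-1.85 to 0.82) and -0.85 (-2.94 to 0.42) against naive cells, and S100a10 had 0.09 (-0.05 to 0.24) and 0.36 (0.19 to 0.53). Both gated states thus passed 1.5-fold above naive cells in S100a4, S100a6, S100a11, Lgals1, Anxa2 and Capg, and only the effector state in Lgals3 and S100a10.

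**Figure D3:**
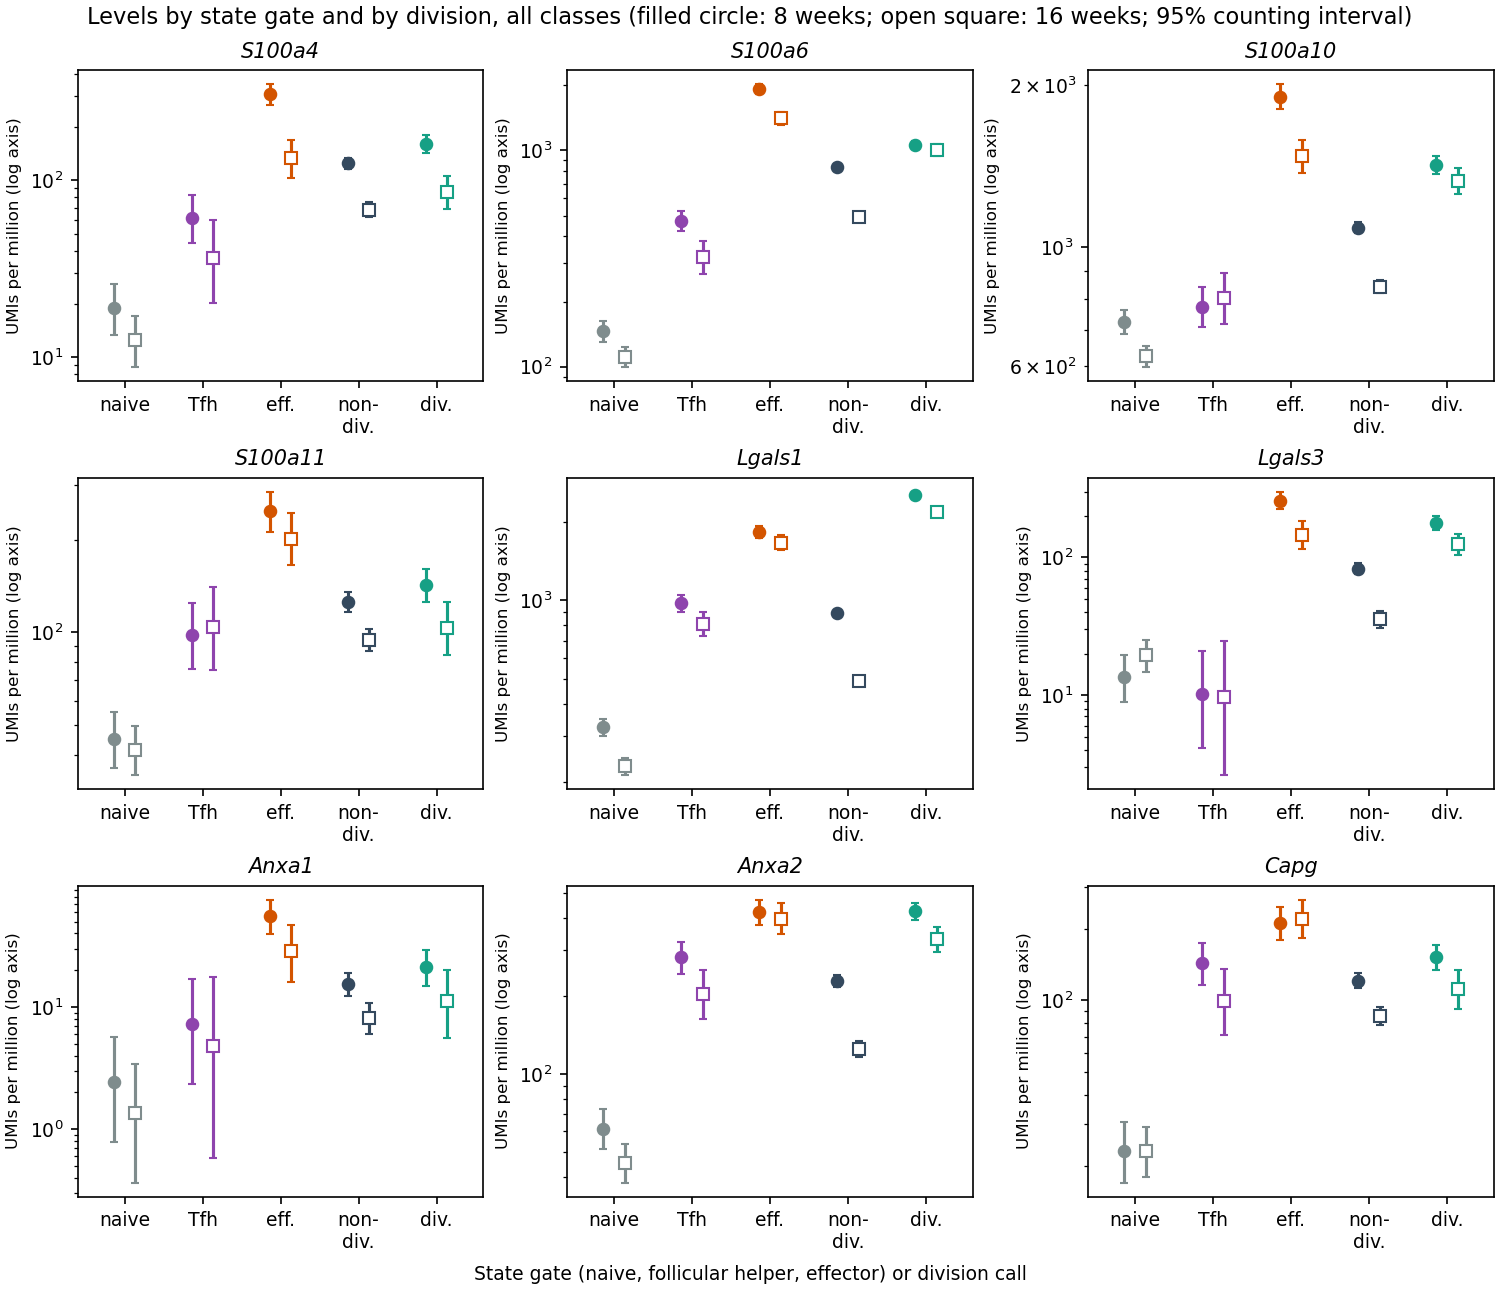
Level of each gene (CPM, log axis) in naive, follicular helper (Tfh) and effector cells and in non-dividing and dividing cells at 8 weeks (filled circles) and 16 weeks (open squares), with exact 95% counting intervals. Each gene is lowest in naive cells except Lgals3, which stands lower still in follicular helper cells (10.2 and 9.68), and Anxa1, whose few UMIs set no order between these groups; S100a10 has the narrowest range, from 625 to 1905 across these states.

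Naive cells made up 37.5% of conventional Cd4 cells at 8 and 55.4% at 16 weeks, and 38.0% and 54.2% of Cd8 cells, but 17.3% (18 of 104) and 11.3% (9 of 80) of Foxp3-positive cells. Effector cells went from 11.2% to 7.15% of all T cells. To see how far the members' levels moved with these shares, the 16-week levels of the 4 states (the 3 gates and the rest) were combined with the 8-week shares of UMIs, a step added after the results were seen. The median log2 ratio was then -0.61 in conventional, -0.41 in Foxp3-positive and -0.58 in Cd8 cells, with 5, 2 and 4 members lower by 1.5-fold or more, where 3.54%, 8.33% and 4.62% of all genes were under the same step. In Cd8 cells S100a4 went from -2.34 to -2.01, S100a6 from -1.77 to -1.38 and Lgals3 from -1.61 to -1.21. Lgals1 went from -0.60 to -0.25 in Cd8 cells, and S100a6 from -0.43 to -0.13 in conventional cells. The part of state shares in the difference was not tested. Cells with no or several states held 58.9% and 44.4% of Cd8 UMIs, and their make-up may also differ between the libraries.

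The ages were also compared within each state. Among naive cells 1 of 8 members was lower by 1.5-fold or more (3.31% of all genes; median -0.30), and among effector cells 3 of 9 were (3.87%; median -0.37). In effector cells S100a4 stood at 306 and 133 CPM, a log2 ratio of -1.20 (-1.61 to -0.81), Lgals3 at 259 and 146 CPM, -0.82 (-1.22 to -0.43), and Anxa1 at 55.6 and 28.5 CPM, -0.93 (-1.92 to -0.08). In the same cells Anxa2 had -0.08 (-0.34 to 0.18), Lgals1 -0.13 (-0.25 to -0.01) and Capg 0.07 (-0.29 to 0.43). Within the effector gate the ratios of Anxa2, Lgals1 and Capg were near 0, while that of S100a4 was further from 0 than over all T cells (-0.91). Among cells with no or several states (732 and 600 cells) 3 of 9 members were lower (3.32%; median -0.52), with Lgals3 at -1.13 (-1.37 to -0.90), Anxa2 at -0.76 (-0.89 to -0.62) and Lgals1 at -0.72 (-0.78 to -0.66). By class, 3 of 7 members were lower in Cd8 effector cells (44 and 30 cells; 7.15% of all genes), with S100a4 at -2.28 (-3.46 to -1.38) and S100a6 at -1.33 (-1.61 to -1.07). In conventional effector cells (52 and 34) it was 1 of 7 (4.31%), S100a4 at -1.18 (-1.93 to -0.52). Naive Cd8 cells went the other way in S100a6, on very few molecules: 1 UMI over 109 cells at 8 weeks and 24 over 169 cells at 16 weeks.

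Dividing cells, those with UMIs of 3 or more of 14 proliferation genes found, numbered 119 at 8 and 74 at 16 weeks and held 22.5% and 13.8% of all T cell UMIs. They were far deeper than other cells, at a median of 13605 and 13101 UMIs against 2801 and 2831, and the part of depth in what follows was not tested. At least 1.5-fold higher in dividing cells were 3 of 9 members at 8 weeks (15% of all genes) and 5 of 9 at 16 weeks (18.1%), with medians of 0.39 and 0.65. Lgals1 was the clearest, with 2533 CPM in dividing against 894 in other cells at 8 weeks, a log2 ratio of 1.502 (1.44 to 1.56), and 2178 against 491 CPM at 16 weeks, 2.15 (2.07 to 2.23). Lgals3 had 1.10 (0.89 to 1.31) and 1.81 (1.48 to 2.14), and Anxa2 had 0.89 (0.76 to 1.02) and 1.41 (1.21 to 1.60). S100a6 and S100a10 passed 1.5-fold at 16 weeks only, with 0.34 and 1.03 for S100a6 and 0.39 and 0.65 for S100a10. The other members stayed below it at both ages, with S100a4 at 0.37 and 0.34, S100a11 at 0.18 and 0.14, Capg at 0.33 and 0.38 and Anxa1 at 0.48 and 0.51. This order of the genes holds for all T cells together and not in each class: Anxa2 and S100a4 had 0.48 and 0.47 in conventional cells at 8 weeks, and 2.54 and 2.51 in Cd8 cells at 16 weeks, where S100a4 was under the floor.

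At 8 weeks the medians by class were 0.36 in conventional, 0.27 in Foxp3-positive and 0.69 in Cd8 cells, with 45, 21 and 21 dividing cells. At 16 weeks the median in conventional cells was 0.74. Within Cd8 cells at 16 weeks (13 dividing against 299 other cells) all 6 members with enough UMIs were higher in dividing cells (29.6% of all genes), with a median of 2.16. Lgals3 stood at 289 against 22.1 CPM there, 3.70 (2.996 to 4.46), and Lgals1 at 3659 against 498 CPM, 2.88 (2.71 to 3.04). Of the 13 dividing cells 4 held Lgals3, 1 of them with 34.6% of its UMIs. A single cell held 32.7% of the Lgals1 UMIs, and without it Lgals1 stood at 2969 CPM in dividing cells. Within Foxp3-positive cells at 16 weeks (11 against 69 cells) the median was -0.43: Lgals1 was higher, 0.63 (0.40 to 0.85), while S100a11, with 6 UMIs in dividing cells, had -2.17 (-3.77 to -1.09) and Capg -1.17 (-1.98 to -0.49). These negative values come from 11 dividing cells. At 8 weeks the class medians were above 0, but single members were lower in dividing cells. S100a4 had -1.25 (-1.88 to -0.68) in Foxp3-positive cells. In conventional cells S100a11 had -0.61 (-1.08 to -0.19) and Capg -0.47 (-0.91 to -0.06).

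Over all T cells, the median ratio of the members between ages was further from 0 in non-dividing than in dividing cells. This contrast was not tested and did not hold for every member. S100a4, for example, stood at 161 and 85.8 CPM in dividing cells and at 125 and 68.1 CPM in non-dividing cells. In non-dividing cells 6 of 9 members were lower at 16 weeks (2.76% of all genes; median -0.87), and in dividing cells 1 of 8, S100a4 (4.66%; median -0.40). Among non-dividing Cd8 cells 8 of 8 were lower (4.47%; median -1.16): S100a4 stood at 135 and 17.7 CPM, -2.91 (-3.69 to -2.25), S100a6 at 1289 and 277 CPM, -2.22 (-2.40 to -2.04), and Lgals3 at 152 and 22.1 CPM with a log2 ratio of -2.76. Among dividing Cd8 cells (21 and 13) 1 of 7 was (7.7%; median 0.03). In Foxp3-positive cells the order was the other way round: 0 of 8 non-dividing (5.75%; median -0.06) and 5 of 7 dividing members were lower (12.7%; median -0.81), the latter from 21 and 11 cells.

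Clones were defined in the 1132 and 1118 cells with exactly 1 productive beta chain and at least 1 alpha chain. At 8 weeks 971 cells carried a receptor seen once, 58 belonged to 29 clones of 2 cells and 103 to 24 clones of 3 or more; at 16 weeks these were 1057, 48 in 24 clones and 13 in 4 clones. Expanded cells (clones of 2 or more) were rarely naive, 4 of 161 and 3 of 61 cells, against 460 of 971 and 647 of 1057 cells seen once. They were also deeper, at a median of 4773 and 3872 UMIs against 2865 and 2927. At 16 weeks 8 of 8 members were at least 1.5-fold higher in expanded cells (19.3% of all genes), with a median of 1.09. At 8 weeks 3 of 9 were (10.7%), Anxa2, Lgals1 and Capg, with a median of 0.48, and Anxa1 was lower, -0.60 (-1.73 to 0.28), where 8.27% of all genes were.

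Among the members, Anxa2 stood at 227 CPM in cells seen once, 371 in clones of 2 and 494 in clones of 3 or more at 8 weeks, and at 148, 289 and 536 CPM at 16 weeks. It was the only member whose levels were ordered by clone size with separate intervals at 8 weeks, the log2 ratio of expanded over single cells being 0.98 (0.82 to 1.15), and 1.23 (0.91 to 1.53) at 16 weeks. Lgals1 stood at 1138, 2634 and 1638 CPM at 8 weeks, highest in clones of 2, and at 715, 1243 and 1840 CPM at 16 weeks. S100a6 stood at 750, 1146 and 984 CPM at 8 weeks and at 444, 762 and 2318 CPM at 16 weeks, where Anxa2, Lgals1, S100a6 and S100a10 all had separate intervals in that order. S100a10 was level across clone sizes at 8 weeks, 1136, 1182 and 1056 CPM, with a log2 ratio of -0.04 (-0.14 to 0.05), and was 0.71 (0.55 to 0.86) higher in expanded cells at 16 weeks. S100a4 and Lgals3 were closer to the cells seen once at 8 weeks, 0.34 (0.06 to 0.61) and 0.50 (0.21 to 0.78), than at 16 weeks, 1.45 (0.90 to 1.95) and 1.41 (0.75 to 1.98). At 16 weeks a single cell held 31.6% of the S100a4 and 32.1% of the Lgals3 UMIs of expanded cells.

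**Figure D4:**
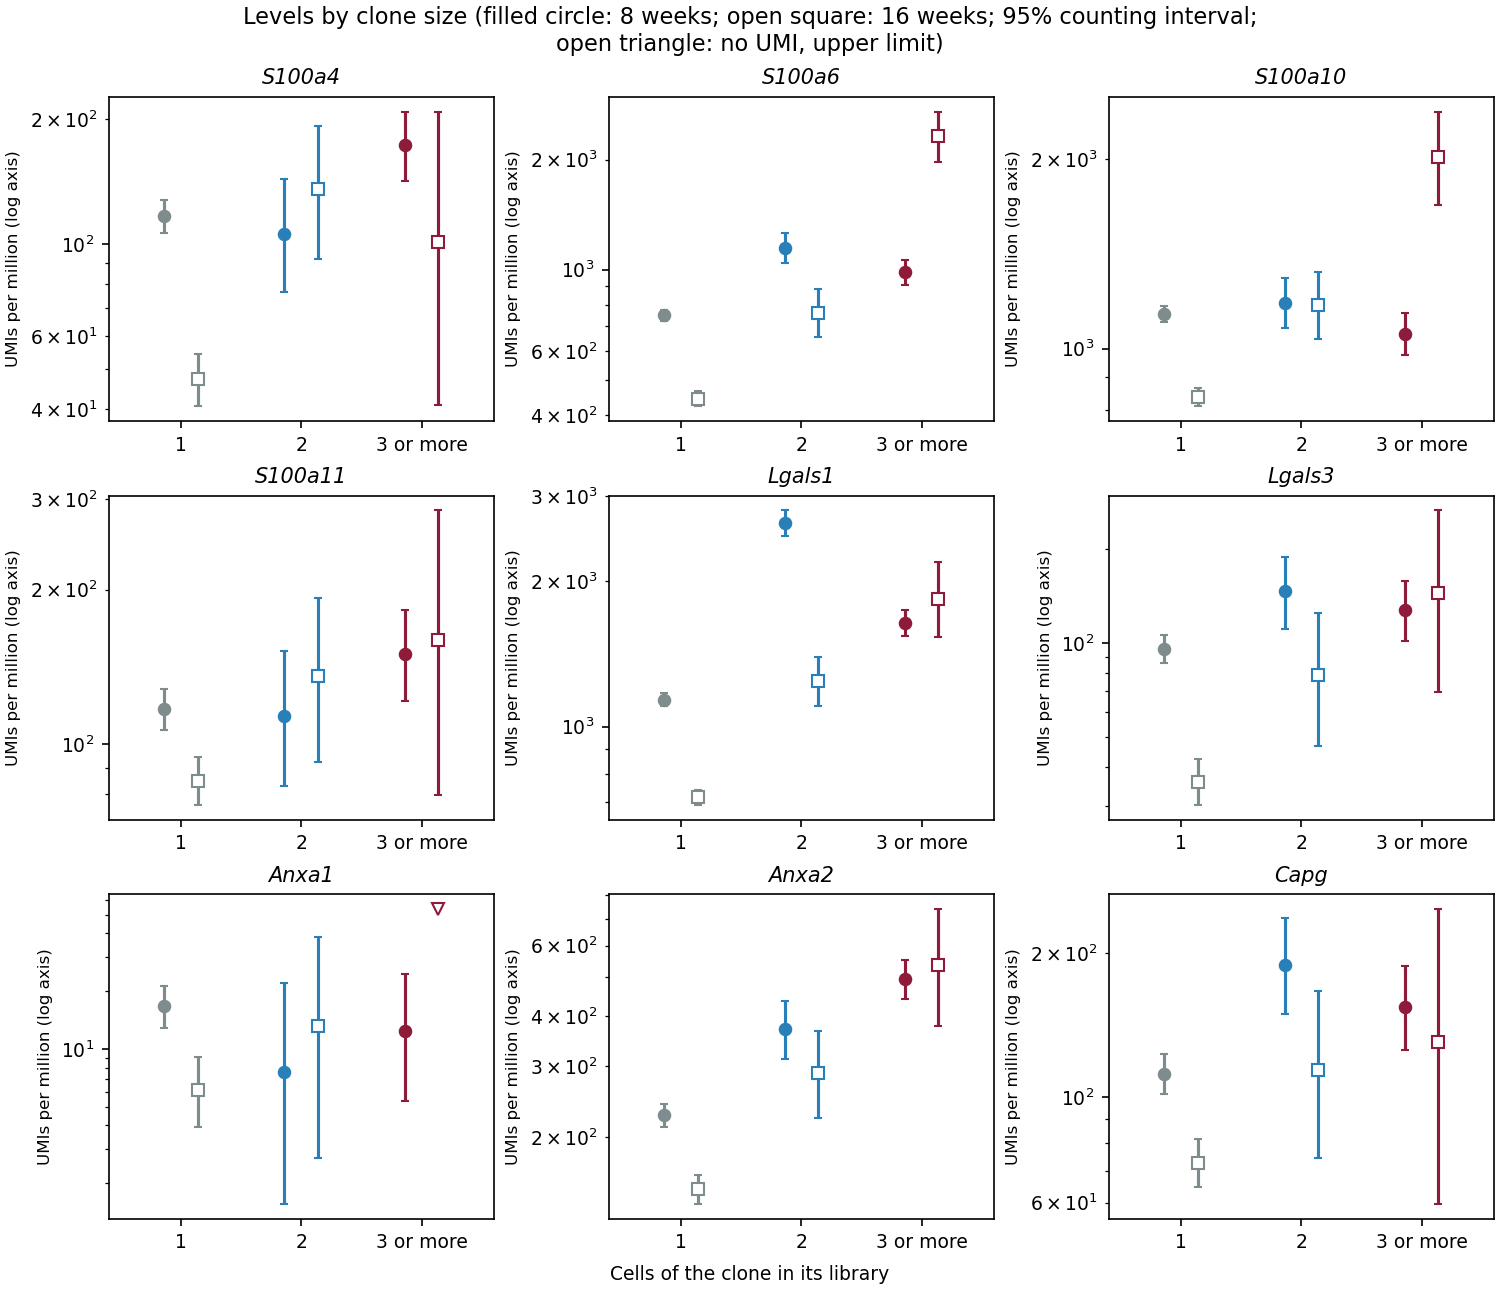
Level of each gene (CPM, log axis) in cells whose paired receptor was seen 1 time, 2 times and 3 or more times in its library, at 8 weeks (filled circles) and 16 weeks (open squares), with exact 95% counting intervals; the open triangle marks the upper limit where no UMI was counted. Anxa2 is ordered by clone size at both ages, from 227 to 494 at 8 weeks and from 148 to 536 at 16 weeks, where the largest group holds 13 cells.

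The ratios were smaller outside the naive state. In this split, added after the results were seen, 0 of 9 members were higher in expanded cells at 8 weeks (5.77% of all genes; median -0.02) and 1 of 8 at 16 weeks (10.5%; median 0.39). Anxa2 kept 0.54 (0.37 to 0.70) and 0.47 (0.14 to 0.77) there, and Lgals1 0.39 (0.31 to 0.47) and 0.22 (0.06 to 0.37). Within conventional Cd4 cells outside the naive state, 2 of 8 and 3 of 7 were higher (4.95% and 9.32%): Lgals1 had 0.76 (0.64 to 0.87) and 0.66 (0.46 to 0.86), Lgals3 0.89 (0.45 to 1.34) at 8 weeks and S100a6 0.78 (0.54 to 1.02) at 16 weeks. Between ages, 7 of 9 members were lower among cells seen once (3.24%; median -0.67) and 0 of 8 among expanded cells (7.99%; median -0.28).

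Clones varied widely in these genes. The 9 together ranged from 1352 to 12988 CPM over the 24 clones of 3 or more cells at 8 weeks, with a median of 4013, and 14 of 24 lay above the 3708 CPM of cells seen once. The 4 such clones at 16 weeks lay between 5104 and 8649 CPM, all above 2392. Anxa2 was above the level of cells seen once in 17 of 24 and 4 of 4 clones. The largest clone, 12 cells with TRBV13-2, TRBJ2-7, TRAV21-DV12 and TRAJ57, of which 11 were conventional Cd4, held 2866 CPM, with Lgals1 at 915 and Anxa2 at 630.1. The clone with the highest sum was 4 Cd8 cells with TRBV3, TRBJ2-5, TRAV14N-1 and TRAJ58, with S100a6 alone at 5709 CPM. Cells of a clone share their origin, so these are single observations.

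To see whether the same cells held several of the genes, each cell was thinned at random to 1500 UMIs, which left out 24 and 13 conventional, 4 and 2 Foxp3-positive and 6 and 6 Cd8 cells that were shallower. Cells with 5 or more of the 9 genes made up 10.5% (8.16% to 13.2%, exact Clopper-Pearson) of conventional cells at 8 and 4.33% (2.85% to 6.27%) at 16 weeks. In Cd8 cells they made up 12.1% (8.53% to 16.5%) and 2.94% (1.35% to 5.51%), and in Foxp3-positive cells 23% (15.2% to 32.5%) and 24.4% (15.3% to 35.4%). Not thinned, the shares were 28.2% and 13.5%, 29.3% and 13.1%, and 54.8% and 66.2%. The intervals of the ages were separate in conventional and Cd8 cells and overlapped in Foxp3-positive cells. Cells with 0 or 1 of the genes went from 44.7% to 63.9% of conventional and from 54.8% to 65.7% of Cd8 cells, and stood at 19% and 20.5% of Foxp3-positive cells. By state, 5 or more were found in 1.04% and 0.927% of naive cells, 30.1% and 21.5% of effector cells and 4.86% and 3.16% of follicular helper cells. By clone, they were found in 9.03% and 4.06% of cells seen once, 17.2% and 14.9% of cells in clones of 2 and 14.9% and 23.1% of cells in clones of 3 or more, the last from 101 and 13 cells.

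**Figure D5:**
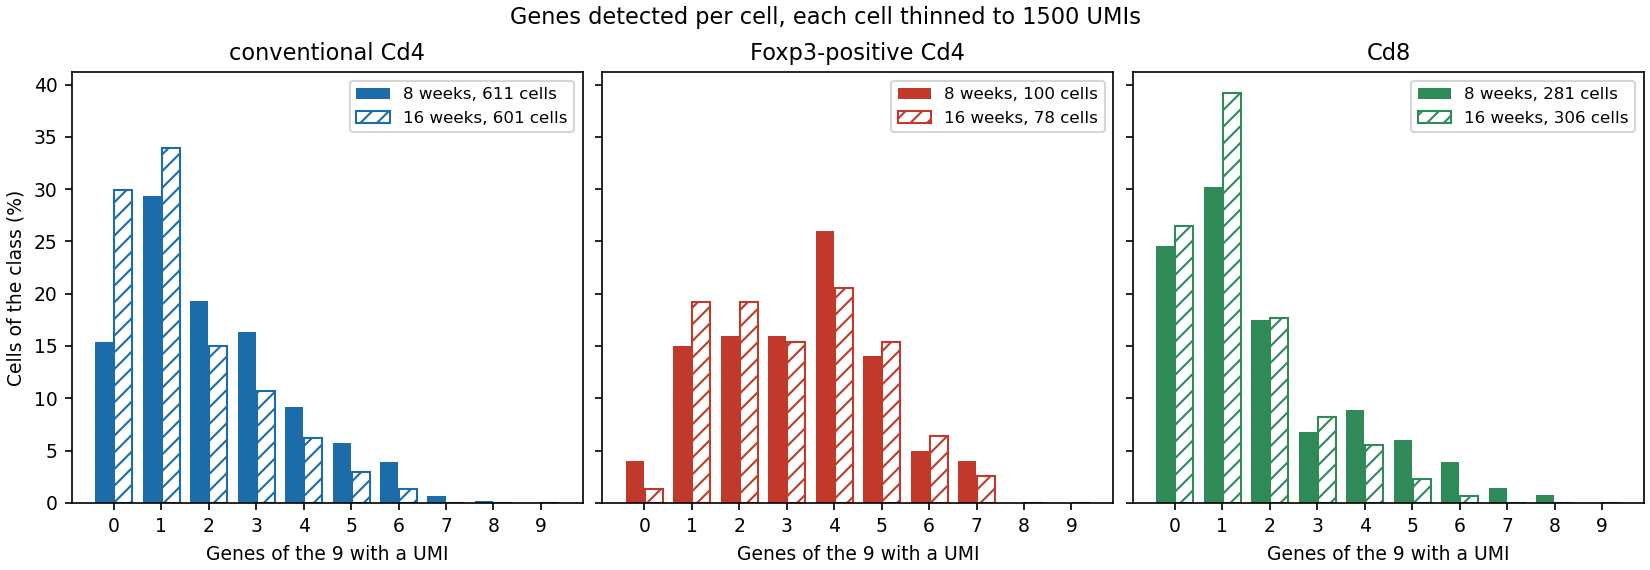
Percent of cells (y axis) by the number of the 9 genes with a UMI (x axis) after thinning each cell to 1500 UMIs, at 8 and 16 weeks, in conventional Cd4 (611 and 601 cells), Foxp3-positive Cd4 (100 and 78) and Cd8 cells (281 and 306). Conventional and Cd8 cells shift to fewer genes at 16 weeks, where 63.9% and 65.7% have 0 or 1, and Foxp3-positive cells do not shift in that way.

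A lower level can come from fewer cells with a gene or from fewer UMIs in each, and in Cd8 cells the thinned counts showed both for S100a6. The share of Cd8 cells with an S100a6 UMI was 31.3% (25.9% to 37.1%) at 8 and 16.7% (12.7% to 21.3%) at 16 weeks, and the mean over cells that had one was 4.62 and 2.67 UMIs. S100a4 was found in 9.96% (6.72% to 14.1%) and 1.96% (0.723% to 4.22%) of Cd8 cells, at 1.64 and 1.67 UMIs in those cells. S100a10 was found in 63.3% (57.4% to 69.0%) and 58.5% (52.8% to 64.1%), intervals that overlap. In naive cells, the group with the lowest levels, S100a4 was found in 1.34% and 1.03% of cells and S100a10 in 53.7% and 50.3%. Anxa1 was found in none of 306 thinned Cd8 cells at 16 weeks, which allows up to 1.20% of cells with a UMI at this depth (exact interval) and sets no limit on cells that express so rare a gene. In counts that were not thinned, the UMIs were concentrated in a few cells. At 8 weeks 50% of the S100a6 UMIs of Cd8 cells came from 15 of 287 cells, and 50% of the Lgals3 UMIs from 7. In conventional cells the corresponding number was 82 of 635 cells for S100a10 and 9 for Lgals3. Cells differ in depth: 21 dividing Cd8 cells held 21.4% of all UMIs of their class at 8 weeks. The part of depth in this concentration was not tested.

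Between pairs of the 9 genes, the median Pearson r across thinned cells was 0.18 and 0.14 in conventional, 0.18 and 0.16 in Foxp3-positive and 0.27 and 0.17 in Cd8 cells at 8 and 16 weeks. Each median is over 36 pairs, except for 28 in Cd8 cells at 16 weeks, where no thinned cell had an Anxa1 UMI. The cells of 1 library share its depth and free RNA, and values this low in sparse counts describe little. The strongest pair reached 0.68, in Cd8 cells at 8 weeks. At 8 weeks 71.4% of the 70 thinned conventional cells with an S100a4 UMI also had one of S100a6, against 24.4% of the 541 without. At 16 weeks these shares were 67.6% of 37 and 15.4% of 564 cells.

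Relatives of the members outside the list were mostly low or level between the ages. Of 11 other S100 genes only S100a13 had 50 UMIs or more, with log2 ratios of -0.24 (-0.39 to -0.09) in conventional, -0.09 (-0.38 to 0.19) in Foxp3-positive and -0.53 (-0.77 to -0.30) in Cd8 cells. Of 10 other annexins, 1 of 5 was lower in conventional cells (Anxa4, 13.02 and 6.12 CPM), 1 of 4 in Foxp3-positive cells (Anxa11, 126 and 70.2 CPM) and 0 of 4 in Cd8 cells, against 4.8%, 7.25% and 5.53% of all genes for these and the following lists. In Cd8 cells Anxa7 was higher (24.3 and 41.2 CPM; 3.2% of all genes were higher there). Of 6 other galectins, 0 of 2, 0 of 1 and 0 of 1 passed 1.5-fold in the 3 classes, with Lgals9 at -0.05, -0.26 and -0.22. Of 6 other gelsolin-family genes, 0 of 3, 0 of 1 and 0 of 3 did. Of 10 binding partners, 0 of 7, 0 of 6 and 0 of 6 passed in either direction. Ahnak, which binds the Anxa2 and S100a10 complex, had -0.42 (-0.66 to -0.18) in conventional and -0.26 (-0.64 to 0.12) in Cd8 cells. Myh9, the myosin heavy chain that S100a4 binds, had 0.11 (-0.01 to 0.24) in conventional and 0.35 (0.10 to 0.60) in Foxp3-positive cells.

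Other effector and memory genes differed in part. Of 15, 3 of 13 measured were lower and 1 higher in conventional cells (4.8% and 3.58% of all genes), 0 lower and 1 higher of 13 in Foxp3-positive cells (7.25% and 4.59%), and 3 of 11 lower in Cd8 cells (5.53%), with medians of -0.21, -0.06 and -0.30. Vim, an intermediate filament gene, stood at 1100 and 727 CPM in conventional cells, -0.60 (-0.68 to -0.51), and had -0.66 (-0.77 to -0.55) in Cd8 and -0.41 (-0.56 to -0.27) in Foxp3-positive cells. Itgb1, the integrin beta 1 chain, had -0.73 (-0.87 to -0.60) in conventional and -0.81 (-1.05 to -0.57) in Cd8 cells. Cd44, the adhesion receptor used to mark antigen-experienced cells, had -0.68 (-1.26 to -0.12) in Cd8 cells, and Il18r1, a chain of the interleukin 18 receptor, -0.61 (-1.09 to -0.16) in conventional cells. Prdm1, the gene of the repressor Blimp-1, was the one higher in conventional cells, 0.83 (0.14 to 1.55), and Id2, an inhibitor of helix-loop-helix factors, the one higher in Foxp3-positive cells, 0.86 (0.24 to 1.498). In naive against other cells 8 of 14 were lower at 8 weeks and 8 of 13 at 16 weeks (19.5% and 19.4% of all genes), and 1 was higher at 8 weeks (7.11%), Itgb7, which is named after its value was seen. The medians were -0.73 and -0.91, with Ccr2 at -2.29 (-3.11 to -1.64) and -3.75 (-5.07 to -2.82).

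Across 12 groups (2 ages, 3 classes, naive or not), the log2 level of each member was set against the mean of the other 8: Pearson r was 0.946 for S100a6, 0.941 for S100a4, 0.938 for Lgals1, 0.907 for Anxa2, 0.885 for S100a10, 0.872 for Capg, 0.849 for S100a11, 0.813 for Anxa1 and 0.755 for Lgals3. The groups share libraries and depth, and the naive gate sets most of the spread. Among 4696 other genes, the 10 most like the mean of the members were Gng2 (0.964), Ywhah (0.959), Nap1l1 (0.958), Bag1 (0.954), Psma4 (0.952), Atpif1 (0.951), Cxcr3 (0.951), Tigit (0.951), Cox7c (0.9495) and Mdfic (0.949). Cxcr3 is itself in the list that gates effector cells.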

How the data were processed

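Both messenger RNA libraries were used as deposited: counts of UMIs per gene and barcode made by the authors, with a software version of 3.0.1 per the file headers. The submitters' processing notes name mm10 and Seurat without their roles; annotation and barcode filter: not given in the sources used here. The deposited receptor tables gave chains, with their counts of UMIs, per barcode; 5 barcodes occurred at both ages. Of 2043 and 2107 barcodes, those with under 500 genes (136 and 151) or over 10% mitochondrial UMIs (32 and 22) were left out, then those with UMIs of 3 or more genes of any list of another cell type (85 and 102, mostly acinar). No clustering was done and no doublet caller was run; cells with 2 or more beta chains (179 and 213), or deeper than 3 times the median, were left out as alternatives.

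Counts were summed per group and scaled to CPM with exact Poisson intervals; log2 ratios had 0.5 UMIs added to each sum, with exact conditional intervals, and a gene was called past 1.5-fold where both sums together held 50 or more UMIs (Python 3.11.15, numpy 2.4.6, scipy 1.17.1, pandas 2.3.3, matplotlib 3.10.9). Intervals cover counting error only. The scripts were tested on simulated data. Ages were compared between single libraries, so no p-value was computed. Cells were thinned to 1500 UMIs for shares of cells. Named genes are the 9 members, up to 4 genes with the largest ratios per family or partner list, and the 10 most alike by Pearson r. Not every gene of the naive and effector lists is reported here. The members and all lists were chosen with earlier results of these data known. Pclaf, Ighm, Igkc, Trdc and Trac were not found in the tables. Alternatives covered gates, filters, depth, weights, scaling, floors and clone sizes.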

Additional observations from a re-analysis of the deposited data

Results flagged for a closer look

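The ratio of S100a4 between ages was below 0 in conventional Cd4 and Cd8 cells and above 0 in Foxp3-positive cells: its log2 ratio, 16 over 8 weeks, was -1.03 in conventional Cd4, 0.25 in Foxp3-positive Cd4 and -2.34 in Cd8 cells. The Foxp3-positive value has an interval that spans 0, and was -0.06 in non-dividing cells and -0.04 with no cell left out for other cell types. Relative to conventional Cd4 cells, the Cd8 level of S100a4 had a log2 ratio of 0.21 at 8 weeks and -1.10 at 16 weeks, the former with an interval (-0.05 to 0.46) that spans 0. For S100a6 the same ratio was 0.92 and -0.41, and for S100a10 it was 0.10 and -0.09, the latter with an interval that reaches above 0. S100a10 in expanded against single cells had -0.04 at 8 weeks, with an interval that spans 0, and 0.71 at 16 weeks. These differences between groups were not tested, since there is 1 library per age.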

How the results depend on the processing

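No paired analysis was possible because there is 1 library per age and kind. Of 1302 values of single members under alternatives, 949 lay within the counting interval of the reported value, 340 moved outside it and 13 that were past 1.5-fold reversed. Of the 340, 293 kept their direction and 47, all under 1.5-fold as reported, changed sign. The cause of the changes was not tested, except that smaller gates hold fewer cells. For most alternatives the share of all genes was not computed, so the counts below stand without it.

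Between ages, the count of members lower in Foxp3-positive cells, reported as 2, was 1 without cells that had any myeloid UMI, 1 without deep cells, 1 with equal weight per cell, 1 with a floor of 200 UMIs, 0 without cells with 2 or more beta chains and 0 in non-dividing cells; Lgals3 without deep cells had 0.0077. The count in Cd8 cells, reported as 7, was 4 without cells with 2 or more beta chains, 3 in receptors seen once and 4 with state shares held, the last chosen after seeing the data. The count higher in Cd8 than in conventional cells, 3 at 8 weeks, was 5 with the stricter conventional gate and 1 with equal weight; at 16 weeks, reported as 1, it was 3 without cells with 2 or more beta chains, 4 with the stricter gate, 2 with at least 2 Cd8 UMIs and 0 with a floor of 200 UMIs.

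In dividing cells the count, 3 at 8 weeks, was 5 with division called on thinned cells and 7 with equal weight. At 16 weeks, reported as 5, it was 8 with equal weight and 1 within Foxp3-positive cells, where the median was -0.43, S100a6 -0.41, S100a10 -0.43, Lgals3 -2.20 and Anxa2 -0.0438. Equal weight per cell was chosen after seeing the data here.

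In expanded cells the count, 3 at 8 weeks, was 5 with equal weight, 5 within conventional, 5 within Cd8 and 0 within Foxp3-positive cells, 0 outside the naive state, 1 for clones of 3 or more cells and 5 for clones of 2; Anxa1 within Cd8 cells had 0.0067. At 16 weeks, reported as 8, it was 1 outside the naive state, where Capg had -0.0343, and 2 within Foxp3-positive cells, where 1 expanded cell gave S100a10 -0.86 and Lgals1 -1.89. It was also 2 within Cd8 cells, where 7 expanded cells gave a median of -0.35, S100a6 -0.42, S100a11 -0.28, Lgals1 -0.57 and Lgals3 -1.93.

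The share of cells with 5 or more of the genes depended on depth. Thinned to 2500 UMIs it was 19.3% and 11.3% in conventional, 38.6% and 36.0% in Foxp3-positive and 24.7% and 6.10% in Cd8 cells; not thinned it was 28.2% and 13.5%, 54.8% and 66.2%, and 29.3% and 13.1%.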

Other observations

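The cells left out as carrying 3 or more genes of another cell type also held the 9 genes. The barcodes with acinar genes (71 and 96) held Lgals1 at 2201 CPM at 8 and 960.4 CPM at 16 weeks and S100a6 at 1238 and 849 CPM. The 12 barcodes with macrophage or dendritic genes at 8 weeks held S100a4 at 319.9 and S100a6 at 1432 CPM, and the 4 at 16 weeks held no UMI of either. The 3 barcodes with duct genes at 8 weeks held S100a11 at 1247 and Anxa2 at 759 CPM and no S100a4 or S100a6 UMI, and the 4 barcodes with B cell genes at 8 weeks held no S100a4 UMI.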
